A study of Mus musculus with 18 samples.

Results

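The 6 lymphomas with the highest and the 6 with the lowest expression of MHC class II genes were taken from 18 end-stage splenic tumours of Eμ-Myc mice and compared over all other genes. A score for each tumour was the mean log2 RMA intensity of H2-Aa, H2-Ab1, H2-Eb1 and Cd74. The tumours were chosen by these measured levels alone, with both Prdm11 genotypes pooled. The 12 tumours at the ends of the ranking entered the comparison, and the 6 between them served as a middle group. High, middle and low are groups made from the measured score, not groups of the study.

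MHC class II molecules are pairs of an α and a β chain that carry peptides to the cell surface for recognition by CD4+ T cells. The invariant chain, the product of Cd74, holds the newly made pair until endosomal proteases degrade it and H2-DM exchanges the remaining fragment for a peptide. Class II genes are expressed in B cells, dendritic cells and macrophages. In the B lineage they are known to rise as precursors mature, under the coactivator CIITA, which acts with RFX and NF-Y proteins bound to X and Y boxes upstream of these genes.

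All animals had the Eμ-Myc transgene, a Myc gene under the enhancer of the immunoglobulin heavy chain locus that is active in B lineage cells. The labels give C57BL/6 as the background strain and no treatment. Mice wild type for Prdm11 (WT) gave 9 of the tumours and Prdm11 knockout mice (KO) gave 9, and each mouse has its own identity number. Whole frozen tumours were homogenised, and no sorting of tumour cells is stated, so that RNA of other spleen cells can be included. The high group held 3 WT and 3 KO tumours, the low group 2 WT and 4 KO tumours and the middle group 4 WT and 2 KO tumours.

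Median intensities of the arrays lay between 35.3 and 41.7. WT tumour 3, a middle tumour, was the least like the others (median correlation 0.924, and 0.957 or more for each of the remaining 17). The median difference between high and low tumours over all 19934 genes tested was -0.01 on the log2 scale, and it was -0.02 after quantile normalization and -0.05 after centring on array medians. Differences are high minus low throughout, and levels are log2 RMA intensities. These are whole tumours, in which fewer cells of a type and less RNA per cell cannot be told apart.

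The stretches upstream of the class II genes are shown because these genes are the ones the score is built from or the ones closest to it in function. Each is 87 bases long, from the RefSeq promoter table on GRCm38.p6, written 5′ to 3′ on the gene's own strand. Capitals mark a Y box core (TGATTGG) and, where it precedes it closely, an X box core (ACNGATG). H2-Aa lies at chr17:34287847-34287933 on the minus strand, H2-Eb1 at chr17:34305746-34305832, H2-Oa at chr17:34092274-34092360, H2-Ob at chr17:34238786-34238872 and H2-Eb2 at chr17:34325513-34325599 on the plus strand.
H2-Aa: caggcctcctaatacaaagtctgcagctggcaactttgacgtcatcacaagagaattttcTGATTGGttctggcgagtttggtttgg
H2-Eb1: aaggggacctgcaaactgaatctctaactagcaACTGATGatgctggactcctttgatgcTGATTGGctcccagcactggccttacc
H2-Oa: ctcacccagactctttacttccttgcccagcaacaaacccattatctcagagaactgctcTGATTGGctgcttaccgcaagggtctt
H2-Ob: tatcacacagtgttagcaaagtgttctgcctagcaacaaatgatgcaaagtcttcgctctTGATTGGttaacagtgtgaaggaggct
H2-Eb2: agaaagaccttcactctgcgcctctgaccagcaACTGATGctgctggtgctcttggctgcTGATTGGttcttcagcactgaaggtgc

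Both cores were searched on both strands from 250 bases before to 50 bases after each annotated start. The X core was present in 9.85% and the Y core in 7.82% of 32851 such windows, and the X core stood 10 to 35 bases before the Y core on 1 strand in 12 windows, or 0.0365%. The windows of H2-Eb1, H2-Eb2, H2-DMb1 and H2-DMb2 were among those 12. In H2-Eb1 and H2-Eb2 the cores were 20 bases apart. H2-Aa, H2-Oa and H2-Ob held the Y core without an X core at that spacing, and neither window of H2-DMa matched either core. These are matches of letters in a window, not measured sites.

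The score ran from 6.15 in KO tumour 4 to 9.87 in KO tumour 6, without a wide gap between neighbouring groups. The lowest high tumour, KO tumour 3, had a score of 8.58 and the tumour just outside, WT tumour 2, had 8.52. At the other end, KO tumour 8 entered the low group with 7.76, below WT tumour 6 with 8.13. The mean score was 9.16 ± 0.45 (SD, n = 6) in high tumours and 7.19 ± 0.56 (SD, n = 6) in low tumours, a gap of 1.97 that the choice of tumours fixes.

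H2-Aa, the α chain of I-A, ran from 8.88 to 10.56 in high tumours and from 6.54 to 8.48 in low ones. H2-Ab1, its β chain, ran from 9.95 to 11.12 against 7.66 to 9.54. H2-Eb1, the β chain of I-E, ran from 7.54 to 9.08 against 5.44 to 6.92. The groups were apart for these chains, and KO tumour 6 was highest and KO tumour 4 lowest for each. Cd74 ran from 7.58 to 8.73 in high tumours and from 4.95 to 6.28 in low tumours, with the same tumours at the ends. These 4 genes chose the groups and were not tested.

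**Figure D1:**
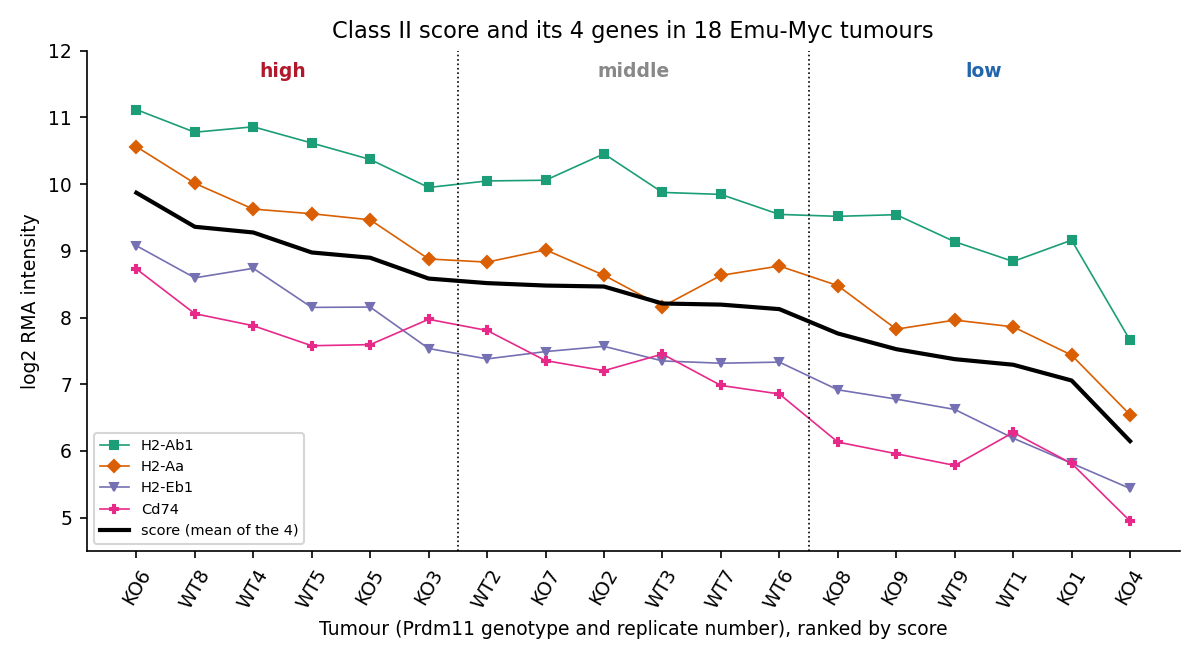
Log2 RMA intensity of H2-Ab1, H2-Aa, H2-Eb1 and Cd74 and their mean, the class II score (black line), in each of 18 tumours ranked by score from KO6 to KO4, with dotted lines between the high, middle and low groups of 6. The score declines from 9.87 to 6.15, the genes follow nearly the same order, and WT and KO tumours stand at both ends.

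The scores of the genotypes overlapped. The mean was 8.09 ± 1.10 (SD, n = 9) in KO and 8.37 ± 0.75 (SD, n = 9) in WT tumours, and the difference was -0.28 (KO minus WT; two-sided exact permutation p = 0.534 over 48620 splits). The highest and the lowest score were both of KO tumours, and the difference was -0.51 without KO tumour 6 and -0.04 without KO tumour 4. The probe set of Prdm11 gave 5.22 ± 0.17 in high and 5.15 ± 0.31 in low tumours (SD, n = 6 each; limma adjusted p = 0.959). Whether the probe set falls inside the deleted exons is not given, so it checks no label.

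Few single genes separated the 12 tumours firmly. Of 19934 genes, 6 were higher in high tumours (0.0301%) and 4 were lower (0.0201%) at an adjusted p below 0.05 in limma. At an unadjusted p below 0.05 in limma the counts were 996 (5.0%) and 649 (3.26%). A positive difference was found for 47.4% of all genes. These shares of all genes are the ones to set beside the counts in the gene lists below. The groups did not overlap for 83 genes that were higher (0.416%) and 32 that were lower (0.161%), and all 10 called genes were among them. For each of the 10, the mean of the middle tumours lay between the means of the high and low tumours. That position is likely for any gene called for so wide a gap, so it does not show grading with the score.

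The count of called genes moved with single tumours. It was 171 higher and 20 lower without KO tumour 3, 15 and 8 without WT tumour 9, and 10 and 5 without WT tumour 1. It was 2 and 1 without KO tumour 6, WT tumour 4, KO tumour 9 or KO tumour 1, and 1 and 1 without KO tumour 4. Without WT tumour 5 or KO tumour 8 it was 2 and 2, without KO tumour 5 it was 4 and 1, and without WT tumour 8 it was 5 and 2. Fitted as a slope on the score over all 18 tumours, which include the same 12, 155 genes rose (0.778%) and 13 fell (0.0652%), with all 10 called genes among them. Within WT tumours 0 genes passed in either direction in limma, with 695 higher and 438 lower at an unadjusted p below 0.05. Within KO tumours 2 were higher, 0 of them among the 6 called in the main comparison, and 1 was lower, which was called there as well.

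H2-DMa, a chain of the H2-DM exchange factor, rose with the class II chains. Its levels had a lowest value of 5.91, a median of 6.62 and a highest of 7.29 in high tumours, against 4.77, 5.17 and 5.36 in low tumours. Every high tumour was above every low tumour, and the middle tumours averaged 5.85. The values in low tumours were below the median level of all genes, 5.39, where signal can be dim. The difference was 1.54 (SE 0.19, limma adjusted p = 0.0113), or 2.90-fold. It was 1.59 within WT and 1.42 within KO tumours.

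H2-Oa and H2-Ob encode H2-DO, the inhibitor of H2-DM found mainly in B cells. H2-Oa had a lowest value of 5.99, a median of 6.47 and a highest of 7.44 in high tumours, against 5.03, 5.39 and 5.71 in low tumours, and the difference was 1.21 (SE 0.23, limma adjusted p = 0.0863). The groups did not overlap, although H2-Oa did not pass in the comparison of groups. It passed in the slope over 18 tumours (limma adjusted p = 0.0036). H2-Ob had 6.59, 8.22 and 9.06 in high and 5.56, 6.50 and 7.16 in low tumours, and the difference was 1.57 (SE 0.41, limma adjusted p = 0.227 between groups and 0.017 in the slope). Its groups overlapped.

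The other class II genes measured gave differences near 0. H2-Eb2, a further E β gene, was at 5.64 ± 0.24 in high and 5.64 ± 0.52 in low tumours (SD, n = 6 each; SE of the difference 0.21), and its window holds the same pair of cores as that of H2-Eb1. The sign of its difference turned under quantile normalization (-0.01) and centring (-0.04). H2-Ea, whose product pairs with the E β chain in other mouse strains and is known to be missing in C57BL/6 mice, was at 4.11 ± 0.19 and 4.18 ± 0.19 (SD, n = 6 each; SE 0.12). H2-DMb1 and H2-DMb2 share 1 probe set and were not named. Of the 5 accessory and other class II chains measured, 1 rose, 0 fell, 3 were higher at an unadjusted p below 0.05 in limma, and the median difference was 1.21.

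No regulator of class II transcription passed in the comparison of groups. Ciita, the coactivator, had a lowest value of 5.57, a median of 5.69 and a highest of 6.46 in high tumours, against 5.06, 5.31 and 5.73 in low tumours. KO tumour 6 was highest by a wide step, and the groups overlapped, with a difference of 0.47 (SE 0.16, limma unadjusted p = 0.0092, adjusted p = 0.391). The subunits of RFX, the factor that binds the X box, differed by 0.17 for Rfx5, 0.13 for Rfxap and 0.07 for Rfxank (SE 0.11, 0.11 and 0.10). Nfyb, a subunit of the Y box factor NF-Y, went the other way, with 7.72 to 8.33 in high and 8.39 to 8.65 in low tumours, and the difference was -0.46 (SE 0.12, limma adjusted p = 0.215).

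Of the 21 regulators measured, none passed in limma after adjustment, 3 were higher and 1 lower at an unadjusted p below 0.05, and the median difference was 0.08. The higher ones were Ciita, Prdm1 at 0.33 and Zbtb32 at 0.41, both known as repressors of Ciita. The widest difference of the list was -0.92 for Ebf1, an early B cell factor, at an unadjusted p of 0.12 in limma. The median was 0.03 without WT tumour 9, 0.04 without KO tumour 8, 0.05 without KO tumour 6, 0.13 without KO tumour 1 and 0.14 without WT tumour 1. The higher count was 1 without KO tumour 1 and the lower count 2 without WT tumour 9. The sign of Rfx5 turned within WT tumours (-0.0007).

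Genes of endosomal protein breakdown were mostly higher in high tumours. Ctss, the cathepsin that trims the invariant chain in B cells and dendritic cells, had a lowest value of 9.27, a median of 9.87 and a highest of 10.41 in high tumours. It had 8.66, 8.94 and 9.45 in low tumours, so that the groups overlapped, and the difference was 0.89 (SE 0.21, limma adjusted p = 0.169). Ctsc, a dipeptidyl peptidase of lysosomes, ran from 8.66 to 9.14 against 7.85 to 8.48 with no overlap, a difference of 0.73 (SE 0.13, limma adjusted p = 0.0675).

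Ctsz differed by 0.75 (SE 0.17, limma adjusted p = 0.146). Of 15 members measured, 0 passed in the comparison of groups, 14 had a positive difference, 8 were higher at an unadjusted p below 0.05 in limma and the median was 0.40. Without KO tumour 6, WT tumour 4 or WT tumour 5, 5 were. In the slope over 18 tumours, Ctss, Ctsh, Ctsc and Ctsz rose.

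Genes of class I presentation were mostly higher by a small amount. The median of its 16 measured members was 0.25, with 6 higher at an unadjusted p below 0.05 in limma and 0 past the adjusted threshold. That count was 1 without WT tumour 8 and 2 without KO tumour 6 or KO tumour 4. H2-M3, a class Ib molecule that presents formylated peptides, differed by 0.88 (SE 0.24, limma adjusted p = 0.242), and Psmb8, a subunit of the immunoproteasome, by 0.44 (SE 0.17, limma adjusted p = 0.503). B2m, the light chain of class I, differed by 0.15.

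**Figure D2:**
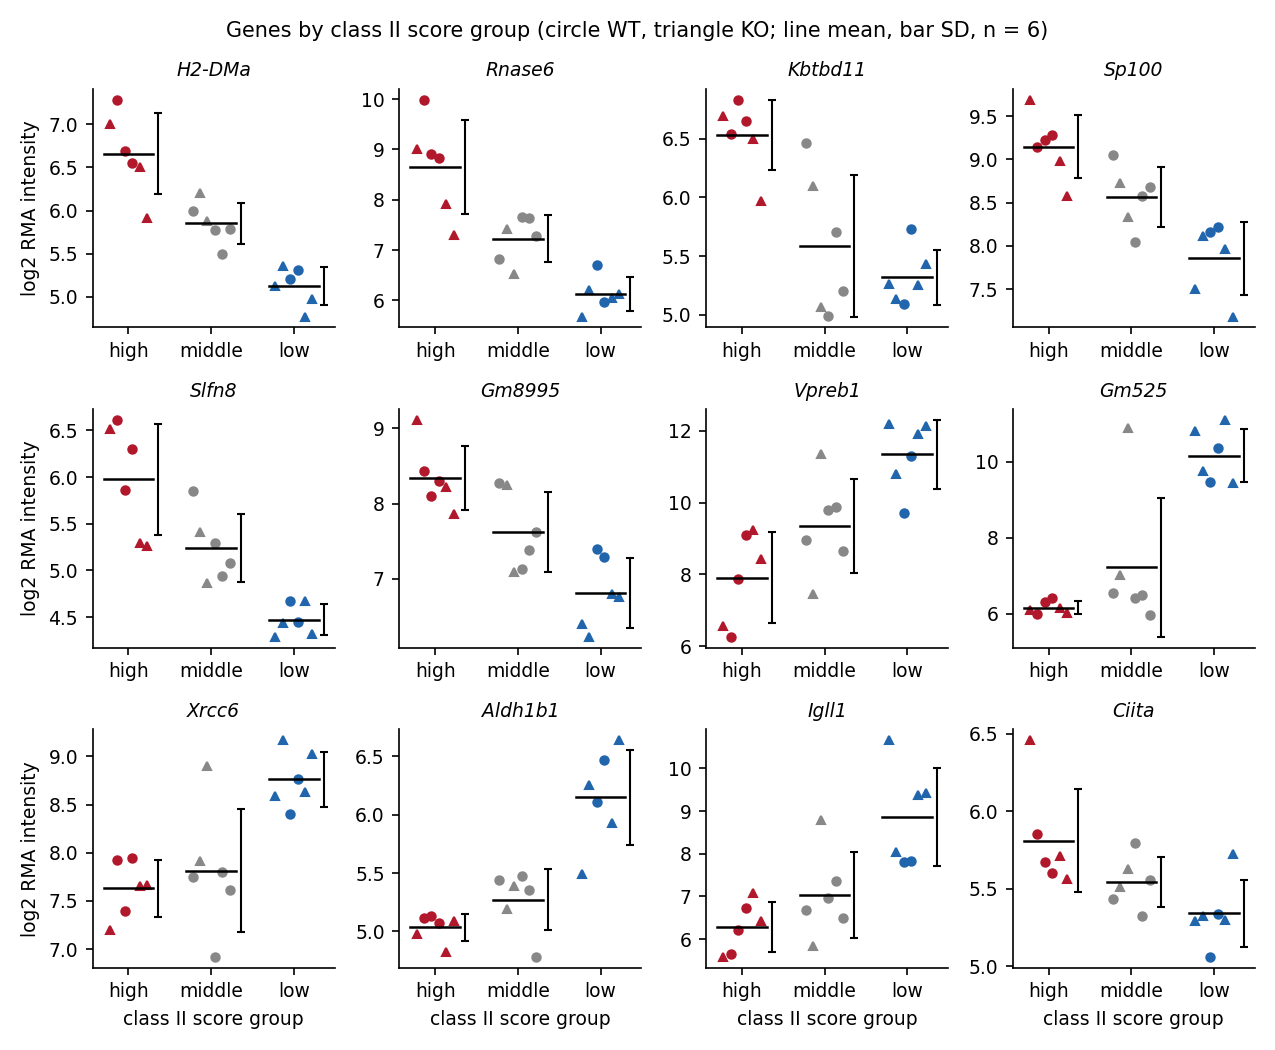
Log2 RMA intensity (vertical axes, one scale per gene) of 12 genes in high, middle and low tumours, with circles for WT, triangles for KO, a line at the mean and a bar of 1 SD beside each group (n = 6). The 10 called genes do not overlap between high and low tumours, Igll1 does not overlap either, and Ciita does.

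Among the genes that rose, Rnase6 had the largest difference. Rnase6, a secreted ribonuclease of the RNase A family, had a lowest value of 7.29, a median of 8.87 and a highest of 9.99 in high tumours. In low tumours it had 5.68, 6.08 and 6.71, a difference of 2.53 (SE 0.35, limma adjusted p = 0.0225), or 5.79-fold. All high tumours were above all low ones, and WT tumour 8 was highest.

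Kbtbd11, a kelch and BTB domain protein, had 5.97, 6.59 and 6.83 as lowest, median and highest values in high tumours, against 5.10, 5.26 and 5.73 in low tumours. The difference was 1.21 (SE 0.15, limma adjusted p = 0.0113). Sp100, an interferon-inducible protein of nuclear bodies, had 8.58, 9.18 and 9.69 against 7.18, 8.04 and 8.22, a difference of 1.29 (SE 0.21, limma adjusted p = 0.0482). Neither gene overlapped between the groups.

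Slfn8, of the Schlafen family, had 5.27, 6.08 and 6.61 in high and 4.29, 4.44 and 4.67 in low tumours, and the difference was 1.50 (SE 0.23, limma adjusted p = 0.0301). Its low tumours lay close together and its high tumours were spread, with KO tumours 3 and 5 lowest among them. The low values were below the median level of all genes, 5.39, where a narrow spread can come from dim signal. Gm8995, annotated by RefSeq as a non-coding transcript and named here after its value was seen, ran from 7.86 to 9.11 against 6.23 to 7.39, a difference of 1.52 (SE 0.23, limma adjusted p = 0.0301). Among the called genes, its difference alone varied with genotype at an unadjusted p below 0.05 in limma, by 0.91 (KO minus WT). Over all genes 0 such interactions passed after adjustment in limma, and 744 did at an unadjusted p below 0.05.

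The next genes by p did not pass in the comparison of groups but rose in the slope over 18 tumours. Gpr183, a receptor for oxysterols that positions B cells in follicles, ran from 6.26 to 8.13 in high and from 5.23 to 5.95 in low tumours, and the difference was 1.49 (SE 0.26, limma adjusted p = 0.0618). Btla, an inhibitory receptor of lymphocytes, differed by 1.88 (limma adjusted p = 0.0618), and Samd9l, an interferon-inducible gene, by 1.80 (limma adjusted p = 0.055). Gpr183 did not overlap between the groups, and the others did.

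Sla, an adaptor that dampens antigen receptor signalling, differed by 1.11 (limma adjusted p = 0.0597). Shisa5 differed by 1.54 (limma adjusted p = 0.0632), Gpr18 by 1.08 and Uckl1 by 0.60 (limma adjusted p = 0.055 for both). These 4 did not overlap between the groups.

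Genes of early B cell stages were lower in high tumours. Vpreb1, a part of the surrogate light chain that pairs with the heavy chain in pro-B and pre-B cells, had a lowest value of 6.26, a median of 8.15 and a highest of 9.24 in high tumours. It had 9.72, 11.62 and 12.19 in low tumours, so that each low tumour was above each high one. It fell by 3.43 in high tumours (SE 0.55, limma adjusted p = 0.0482), which is 10.8-fold. The difference was -2.77 within WT and -3.68 within KO tumours.

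Igll1, the other part of the surrogate light chain, ran from 5.58 to 7.08 in high and from 7.81 to 10.66 in low tumours, and the difference was -2.58 (SE 0.45, limma adjusted p = 0.0632). The groups did not overlap, and Igll1 passed in the slope (limma adjusted p = 0.018). Dntt, the terminal transferase of V(D)J joining, differed by -2.21 and fell in the slope as well (limma adjusted p = 0.014). Rag1 and Rag2, the recombinase genes, differed by -1.03 and -1.05 at unadjusted p of 0.26 and 0.17 in limma, and Il7r, the receptor for interleukin 7, by 0.02.

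Of 24 pro-B and pre-B genes measured, 0 rose and 1 fell in the comparison of groups. At an unadjusted p below 0.05 in limma, 11 were lower and 0 higher, 18 had a negative difference and the median was -0.75, or -0.79 when arrays were centred. The count higher became 2 on leaving out WT tumour 4, and 1 on leaving out WT tumour 5, KO tumour 5, KO tumour 3, KO tumour 8 or KO tumour 4. The mean level of the list overlapped between the groups. It was above every high tumour in 4 low tumours, and the other two, WT tumour 9 at 6.29 and KO tumour 9 at 6.48, lay within the range of the high tumours, 5.80 to 6.56.

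Xrcc6, the Ku70 subunit of end joining, which also completes V(D)J recombination, was lower in every high tumour. It had 7.20, 7.66 and 7.94 as lowest, median and highest values in high tumours, against 8.41, 8.70 and 9.17 in low tumours, and fell by 1.13 (SE 0.16, limma adjusted p = 0.0225). Aldh1b1, a mitochondrial aldehyde dehydrogenase, had 4.83, 5.08 and 5.13 against 5.49, 6.18 and 6.64, and fell by 1.11 (SE 0.17, limma adjusted p = 0.0301). Its values in high tumours were below the median level of all genes, 5.39, where a narrow spread can come from dim signal.

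Gm525 had the smallest p-value and the widest difference of all genes tested. The naming rule passes over predicted genes, so it is named after its value was seen, and its function is not stated here. Its levels were 5.98 to 6.42 in high tumours, with a median of 6.11, and 9.44 to 11.09 in low tumours, with a median of 10.06. It fell by 4.0 (SE 0.26, limma adjusted p = 8.66e-06), or 16.0-fold. It passed in 27 of 32 alternatives, among them all 12 that leave out 1 tumour, and was smallest at -2.04 for 9 against 9 tumours (limma adjusted p = 0.394). Of the other called genes, H2-DMa passed in 24 of 32 (11 of 12 leaving out 1 tumour), Kbtbd11 in 22 (12 of 12), Rnase6 in 17 (5 of 12), Xrcc6 in 16 (5 of 12) and Aldh1b1 in 15 (4 of 12). Slfn8 passed in 14 of 31 (4 of 12), Gm8995 in 12 of 32 (3 of 12), Sp100 in 11 (3 of 12) and Vpreb1 in 9 (2 of 12).

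The middle tumours did not grade evenly between the ends for Gm525. KO tumour 2 was at 10.87, like the low tumours, and the other middle tumours ran from 5.97 to 7.01. Over all 18 tumours, 11 lay at or below 7.01 and 7 at or above 9.44, with none between. KO tumour 2 also had 8.90 for Xrcc6, 8.80 for Igll1 and 11.35 for Vpreb1, within the ranges of the low tumours, although its class II score of 8.47 lay near the high group.

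The remaining genes named as lower did not pass. Lgals9, galectin 9, differed by -0.91 (limma adjusted p = 0.0993), Kcnk1, a potassium channel, by -1.25 (limma adjusted p = 0.139), and Lxn, a carboxypeptidase inhibitor, by -1.26 (limma adjusted p = 0.14). Desi1 differed by -0.76, Dleu7 by -0.71, Cmtm7 by -0.57, Smim41 by -1.29 and Arhgap10 by -0.68, with limma adjusted p from 0.0769 for Desi1 to 0.129 for Arhgap10. Of these 8, the groups did not overlap for Desi1, Dleu7, Cmtm7 and Arhgap10.

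Most genes of mature B cells had a positive difference, beside markers of T, NK and dendritic cells in the same tumours. Of 26 surface and homing genes measured, 24 had a positive difference, 18 were higher and 1 lower at an unadjusted p below 0.05 in limma, and the median was 0.76. None passed after adjustment in the comparison of groups. In the slope, Gpr183, H2-Oa, Itgb7 and Fcrl1 rose, and H2-Oa is also counted among the class II chains. The 1 lower gene was Cxcr4, a chemokine receptor of bone marrow retention, at -0.40, and the largest difference was 1.82 for Cr2, complement receptor 2 (limma unadjusted p = 0.025). The mean level of the list ran from 6.11 to 7.34 in high and from 5.77 to 6.14 in low tumours, with KO tumour 3 the high tumour within the low range. In the fit that includes means of T cell, macrophage and erythroid genes the median of the list was 0.45 and Gpr183 differed by 0.29 (SE 0.29). With the dendritic cell list in the fit they were 0.24 and 0.52 (SE 0.22).

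Genes of the pan-B list were mixed. Ms4a1, which encodes CD20 and is known to come on at the pre-B stage, had a lowest value of 8.64, a median of 10.23 and a highest of 10.59 in high tumours, against 4.84, 7.04 and 9.35 in low tumours. The groups overlapped through WT tumour 9, and the difference was 2.90 (SE 0.61, limma adjusted p = 0.121 between groups and 0.017 in the slope). Blk, a Src family kinase of the B cell receptor, differed by 1.02 (SE 0.25, limma adjusted p = 0.18).

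Markers of B lineage identity did not pass in either direction. Cd79a, a signalling chain of the B cell receptor, differed by -0.07, Pax5, the factor that holds B cell identity, by -0.09 and Ebf1, which acts with it, by -0.92, at unadjusted p of 0.86, 0.81 and 0.12 in limma. Over 16 pan-B genes, 7 were higher and 0 lower at an unadjusted p below 0.05 in limma, none passed after adjustment, and the median was 0.40, or 0.20 without KO tumour 3.

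In B cell receptor signalling, Ptpn6, the phosphatase SHP-1, ran from 7.88 to 8.78 in high and from 7.15 to 7.68 in low tumours, and the difference was 0.89 (SE 0.16, limma adjusted p = 0.0736). Malt1, a paracaspase that links the receptor to NF-kB, differed by 1.01 (SE 0.20, limma adjusted p = 0.105). Neither overlapped between the groups, and both rose in the slope. Over the 20 genes of the list the median was 0.11. Cd5, which is also counted among the T cell genes, was among the 3 higher at an unadjusted p below 0.05 in limma. That count was 5 without KO tumour 3 or KO tumour 4, and the median was 0.07 without KO tumour 6.

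All 17 NF-kB targets and feedback genes measured had a positive difference, with 7 at an unadjusted p below 0.05 in limma, 0 after adjustment and a median of 0.30. A mean level below that of the median gene was found for 9 of the 17. Birc3, an inhibitor of apoptosis, differed by 0.83 (SE 0.20, limma adjusted p = 0.173) and Cd40, the receptor for T cell help, by 0.64 (SE 0.18, limma adjusted p = 0.261). Cd40 and Traf1 are also counted among the mature B cell genes. The mean of the list was higher in every high tumour, 5.60 to 6.22, than in any low tumour, 5.36 to 5.57. Of 13 germinal centre and plasma cell genes, 3 were higher at an unadjusted p below 0.05 in limma, or 5 without KO tumour 3, among them Fas, the death receptor, at 0.77, and Rgs13, of germinal centre B cells, at 1.12. Prdm1 and Irf4 are counted in that list and among the class II regulators.

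**Figure D3:**
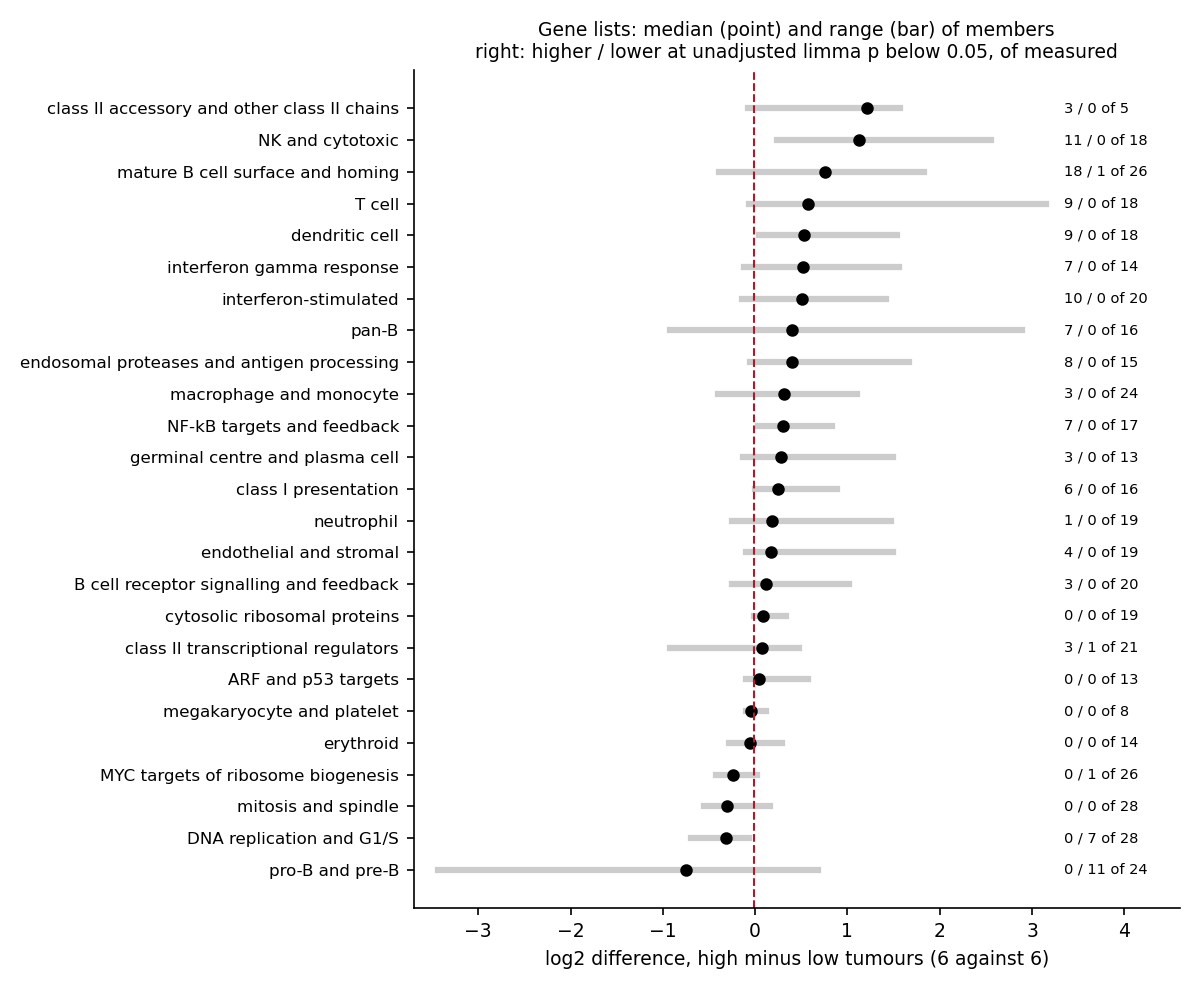
Median (point) and range (bar) of the log2 difference, high minus low, of the measured members of 25 gene lists, with the numbers higher and lower at an unadjusted limma p below 0.05 at the right. The dashed line is at the median difference of all genes, -0.01. The class II accessory list has the highest median, 1.21, and the pro-B and pre-B list the lowest, -0.75.

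Markers of T, NK and dendritic cells were higher in most high tumours, beside the class II genes. Those of erythroid cells and megakaryocytes were not, with median differences of -0.06 and -0.04. Cd3g, a chain of the T cell receptor complex, had a lowest value of 5.70, a median of 8.79 and a highest of 9.64 in high tumours, against 4.69, 5.75 and 6.24 in low tumours. The groups overlapped through KO tumour 3, and the difference was 2.68 (SE 0.55, limma adjusted p = 0.109 between groups and 0.0072 in the slope). Cd8a, the CD8 α chain of cytotoxic T cells and of a class of dendritic cells, ran from 5.48 to 7.39 against 5.05 to 5.41 with no overlap, a difference of 1.28 (SE 0.24, limma adjusted p = 0.0863).

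Of 18 T cell genes measured, 17 had a positive difference, 9 were higher at an unadjusted p below 0.05 in limma and 0 passed after adjustment, with a median of 0.57. The mean level of the list was 5.73 to 7.07 in high and 5.54 to 5.74 in low tumours. All 18 NK and cytotoxic genes had a positive difference, against 47.4% of all genes. Of them 11 were at an unadjusted p below 0.05 in limma, and the median was 1.12. A mean level below that of the median gene was found for 10 of the 18. The mean level of the list was 4.93 to 7.02 in high and 4.95 to 5.59 in low tumours. Klre1 and Klrk1, lectin-like receptors of NK cells, differed by 1.78 and 1.56 (limma adjusted p = 0.151 and 0.205).

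KO tumour 3 departed from the other high tumours in these lists. Its mean level was 5.73 for T cell genes and 4.93 for NK and cytotoxic genes, while KO tumour 6, WT tumour 8, WT tumour 4 and WT tumour 5 were at 6.69 to 7.07 and at 6.54 to 7.02. KO tumour 5 lay between, at 6.16 and 5.83. Without KO tumour 3, 6 T cell genes and 10 NK and cytotoxic genes rose at a limma adjusted p below 0.05. Over all 19934 genes 171 rose in that fit, against 6 in the main comparison.

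Dendritic cells, which express class II at high levels, were represented by 18 genes, and each had a positive difference. At an unadjusted p below 0.05 in limma 9 were higher, 0 passed after adjustment and the median was 0.53, or 0.34 without WT tumour 8. Itgax, which encodes CD11c, had 4.91, 5.16 and 5.83 as lowest, median and highest values in high tumours, against 4.19, 4.30 and 4.78 in low tumours, and the difference was 0.85 (SE 0.15, limma adjusted p = 0.0675). Its groups did not overlap. Of the 18 genes, 9 had a mean level below that of the median gene, Itgax among them. Cd8a is counted in this list and among the T cell genes, and Bst2 also among the interferon-stimulated genes. Flt3 is also in the pro-B and pre-B list and Irf8 among the class II regulators. The mean level of the list was 5.25 to 6.15 in high and 5.08 to 5.28 in low tumours, with KO tumour 3 again within the low range.

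Macrophage and monocyte genes showed a smaller difference, with a median of 0.32 over 24 genes and 3 higher at an unadjusted p below 0.05 in limma. That count was 10 without KO tumour 3 and 10 without WT tumour 1. Itgam, which encodes CD11b, differed by 0.51 (SE 0.12, limma adjusted p = 0.188), and Timd4, a receptor of resident macrophages for dying cells, by 0.97 (SE 0.28, limma adjusted p = 0.284). The mean level of the list was 6.24 to 7.27 in high and 6.16 to 6.86 in low tumours.

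Adding the mean levels of the T cell, macrophage and erythroid lists to the fit left 0 called genes in either direction in limma, with 343 higher and 286 lower at an unadjusted p below 0.05. The difference of H2-DMa was then 0.91 (SE 0.29) in place of 1.54 (SE 0.19), and that of Rnase6 0.89 (SE 0.38) in place of 2.53 (SE 0.35). For Vpreb1 it was -1.91 (SE 0.98) in place of -3.43 (SE 0.55). The SEs were wider in this fit, so a lost call is not by itself a lost difference. Gm525 differed by -4.05 and no longer passed (limma adjusted p = 0.0502). With the mean of the dendritic cell list in the fit, 2 genes were higher, 0 of them among the 6 called in the main comparison. The 1 lower gene was Gm525, at -4.08 (limma adjusted p = 0.0042), and H2-DMa differed by 0.91. With the mean of the pro-B and pre-B list, an alternative chosen after seeing the data, 0 were higher and 1 lower in limma, with 1302 and 1532 at an unadjusted p below 0.05, and H2-DMa differed by 1.21. These covariates come from the same arrays, and 1 score of class II RNA per tumour does not say which cells the RNA came from.

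**Figure D4:**
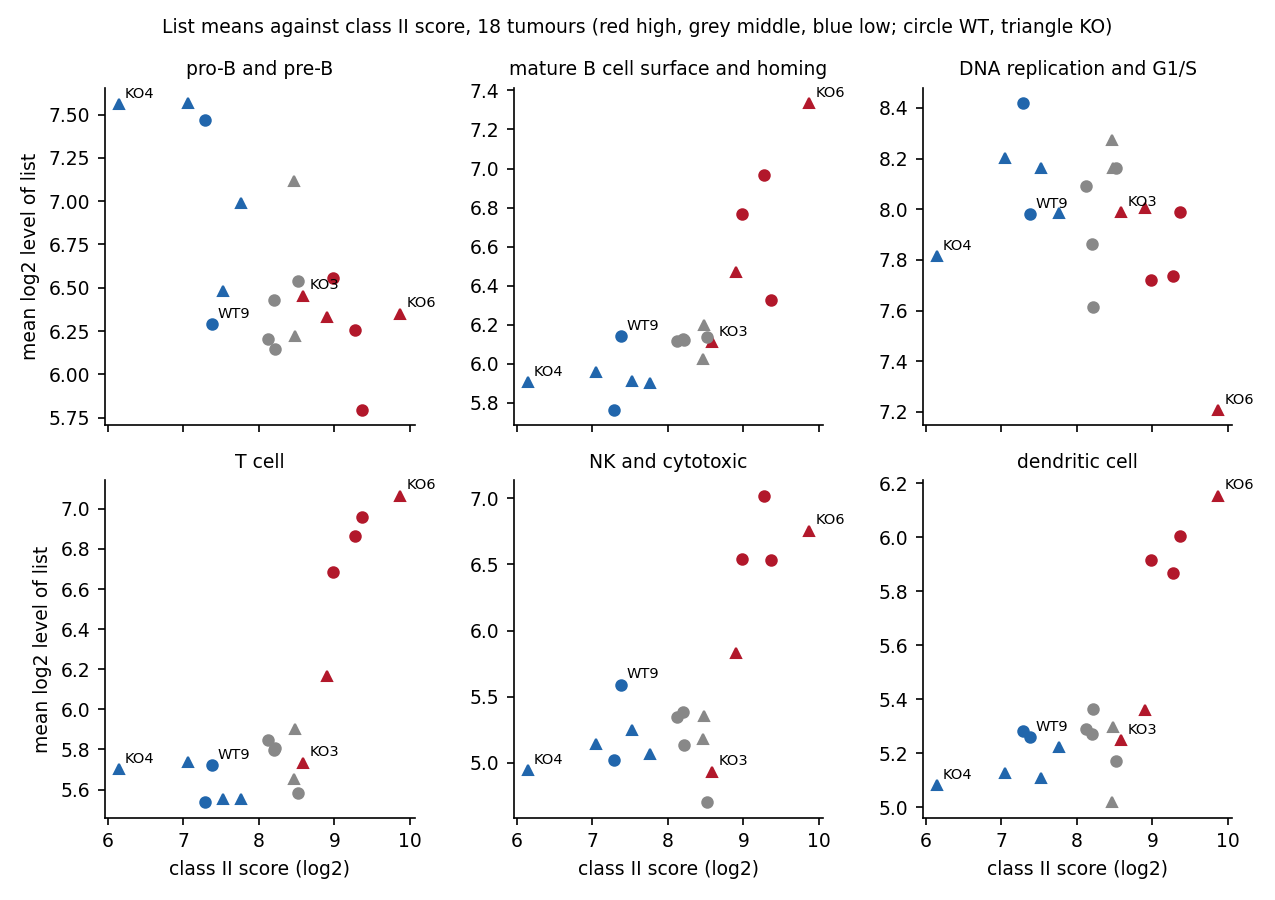
Mean log2 level of 6 gene lists (vertical axes) against the class II score (horizontal axis, log2) in 18 tumours, red for high, grey for middle and blue for low, with circles for WT and triangles for KO. T cell, NK and dendritic cell levels are high in KO6, WT8, WT4 and WT5, while KO3 lies with the middle and low tumours, and 4 low tumours exceed every high tumour for pro-B and pre-B genes.

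Interferon-responsive genes were higher in part of the high tumours. Of 20 interferon-stimulated genes, 18 had a positive difference with 10 higher at an unadjusted p below 0.05 in limma, with 0 after adjustment and a median of 0.51. Mx1, an antiviral GTPase, differed by 0.55 (SE 0.13, limma adjusted p = 0.173), and Cxcl10, a chemokine induced by interferons, by 1.18 (SE 0.35, limma adjusted p = 0.302). Of 14 interferon gamma response genes, 7 were higher at an unadjusted p below 0.05 in limma, the median was 0.51, and 1 rose in the slope, Gbp3, a guanylate-binding protein.

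Cxcl9, a chemokine of the interferon gamma response, differed by 1.55 (SE 0.47, limma adjusted p = 0.321) and Gbp3 by 0.94 (SE 0.22, limma adjusted p = 0.169). In the fit that includes means of T cell, macrophage and erythroid genes, the signs turned, to -0.60 for Cxcl9, -0.29 for Cxcl10 and -0.03 for Gbp3 (SE 0.44, 0.34 and 0.26). None of these passed the threshold. The mean level of the interferon gamma list was 5.38 to 6.66 in high and 5.40 to 6.12 in low tumours, with KO tumour 3 below every low tumour and WT tumour 1 highest among the low tumours.

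Genes of DNA replication were lower in high tumours without passing the threshold. All 28 measured had a negative difference, 7 were lower at an unadjusted p below 0.05 in limma and the median was -0.31. Pola1, the catalytic subunit of DNA polymerase α, differed by -0.69 (SE 0.23, limma adjusted p = 0.389) and Tyms, thymidylate synthase, by -0.43 (SE 0.17, limma adjusted p = 0.495). The mean level was 7.21 to 8.0 in high and 7.82 to 8.42 in low tumours, with KO tumour 6 lowest.

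Without KO tumour 6 the median of the replication list was -0.17 and 1 gene was lower at an unadjusted p below 0.05 in limma. That count was 2 without WT tumour 1, 3 without WT tumour 4 or WT tumour 5, 4 without KO tumour 9 or KO tumour 1 and 11 without KO tumour 3. With the dendritic cell list in the fit the median was 0.05. Over 28 genes of mitosis the median was -0.30 and over 26 MYC targets of ribosome biogenesis -0.24, with 0 and 1 lower at an unadjusted p below 0.05 in limma. Without KO tumour 6 the median of the mitosis list was -0.13. Without KO tumour 3 those counts were 10 and 11, and without KO tumour 5 they were 2 and 4. The mitosis count was also 3 without WT tumour 9, 2 without KO tumour 8 and 1 without KO tumour 9, and the ribosome biogenesis count was 0 without KO tumour 6, WT tumour 4, KO tumour 8, KO tumour 1 or KO tumour 4.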

How the data were processed

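The deposited values were linear probe set intensities that the authors had summarised by RMA, according to the submitters' processing notes. Scan dates, the build and a version of RMA are not given in the sources used here. Log2 values were assumed in the design, so the deposited intensities, from 1.63 to 14996, were transformed to log2 with no pseudocount and no filter on dim probe sets. For a gene with several probe sets of a single platform symbol, the one with the highest mean over 18 arrays was kept, which gave 19938 genes, and the 4 score genes were left out of the tests. No arrays held identical values (0 pairs), and the number of arrays limits the precision.

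High and low tumours were compared with limma 3.58.1 in R 4.3.3 (lmFit and eBayes, no covariate) with Benjamini-Hochberg adjustment over 19934 genes and a threshold of 0.05. The other steps used scipy 1.17.1, pandas 2.3.3, matplotlib 3.10.9 and numpy 2.4.6 in Python 3.11.15. The tumours, gene lists and tests were chosen with earlier results of these data known. Named genes were up to 12 in each direction past the threshold by size, then by smallest p, with clones and receptor segments passed over, up to 4 past the threshold or otherwise 2 of each list, and the class II genes with Ciita, Rfx5, Rfxap, Rfxank, Prdm11, Igll1 and Ctss. Other genes named, list members included, were chosen after their values were seen.

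In simulations of 6 against 6 tumours with 200 changed genes per run, limma recovered 42.4% at a 1.5-fold and 81.6% at a 2-fold change. It recovered 98% at a 4-fold change, and 4.06% of its calls were false. Whether these rates hold for the measured tumours, where 10 genes were called, was not tested. Alternatives covered the probe set, scaling, dim genes, variance model, array weights, group size, score, genotype, cell type covariates, replicate number and left-out tumours. Promoter windows were taken from RefSeq on GRCm38.p6 for motif matches.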

Additional observations from a re-analysis of the deposited data

Results flagged for a closer look

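Of 216 sets of 6 tumours, one for each named gene, score gene or list mean in the high or the low group, 17 held a tumour far from the other 5 (7.87%). Chance gives about 1 in 20 such sets. All values are log2 intensities, and 5 of the 17 are of KO tumour 6, 4 of WT tumour 1 and 3 of KO tumour 3.

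Among high tumours, KO tumour 6 was above the others for Ciita (6.46, others up to 5.86) and Itgax (5.83, others up to 5.23). It was below the others for Tfrc (8.71), the mean of the erythroid list (6.41) and the mean of the DNA replication list (7.21). KO tumour 3 was below the others for Rpl13 (12.15), Ccng1 (9.08) and the mean of the ribosomal protein list (11.97). WT tumour 8 was below the others for Rfx5 (5.02).

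Among low tumours, WT tumour 1 was above the others for Itgax (4.78), Sptb (7.72), Tfrc (11.20) and the mean of the erythroid list (8.97, others up to 7.33). KO tumour 4 was below the others for H2-Ab1 (7.66) and Cd74 (4.95), both genes of the score. KO tumour 8 was below the others for Gpr18 (5.79), and KO tumour 1 was above the others for Arhgap10 (6.30).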

How the results depend on the processing

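The main comparison called 6 genes higher and 4 lower. Counts were 3 higher after centring, 13 with dim genes left out, 12 with a trended and robust variance, 30 and 9 (higher and lower) with array weights, 70 and 9 for 5 against 5 tumours, 0 and 0 for 9 against 9 (limma, 999 and 1068 at an unadjusted p below 0.05), 2 and 0 for a score without Cd74 (1139 and 688 unadjusted), 155 and 13 for the slope and 63 and 7 for 18 tumours in 3 groups. With covariates they were 0 and 0 (T cell, macrophage and erythroid lists), 2 and 1 (dendritic cell list) and 0 and 1 (pro-B and pre-B list, chosen after seeing the data). They were 0 and 0 within WT, 2 and 1 within KO, and 0 and 1 without KO tumours 6 and 4, also chosen after seeing the data (limma, 657 and 364 unadjusted). The 2 higher genes with the dendritic cell list, and the 2 within KO, held 0 of the 6 higher genes of the main comparison. Leaving out 1 tumour gave 1 to 171 higher and 1 to 20 lower, and -0.51 to -0.04 for the score by genotype. Fits within genotypes held fewer tumours, and the causes of these shifts were not tested.

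The replicate number did not pair the tumours: 4 of 9 same-numbered pairs had deviations correlated above 0.1, from -0.23 to 0.49, and 2 of 18 tumours correlated best with their own number. With that number as a block, 18 tumours in 3 groups gave 303 and 37, and the score by genotype p = 0.672 (exact sign flips). Those 303 and 37 held 4 of the 6 higher and 1 of the 4 lower genes of the main comparison. Signs turned under the block for Sptb (0.0044), Tfrc (0.11), Tyms (0.23), H2-Eb2 (-0.11), H2-Ea (0.026) and Prdm11 (-0.26).

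Over 78 named genes and 32 settings, 2127 of 2483 values kept direction and side of the threshold, 156 passed newly, 152 no longer passed and 48 changed sign, of genes that had not passed. With T cell, macrophage and erythroid covariates these were Cxcl10 (-0.29), Gbp3 (-0.032), Cxcl9 (-0.60), Tfrc (0.15), Treml1 (-0.047), Pa2g4 (0.24), Tpx2 (0.011), Ccng1 (-0.027) and Trp53inp1 (-0.16). With the dendritic cell covariate they were Rgs13 (-0.0022), Cxcl10 (-0.078), Cxcl9 (-0.11), Tfrc (0.22), Treml1 (-0.037), Pa2g4 (0.12), Tpx2 (0.14), Kif11 (0.14), Ccng1 (-0.088), Trp53inp1 (-0.079) and H2-Eb2 (-0.082). With the pro-B and pre-B covariate they were Sptb (0.19), Vwf (0.012) and H2-Eb2 (-0.31). Within KO they were Sptb (0.070), Vwf (0.0089), Treml1 (-0.080), H2-Eb2 (-0.070) and Prdm11 (-0.035), and within WT Rfx5 (-0.00070). For 9 against 9 they were Tfrc (0.026) and Prdm11 (-0.030). H2-Eb2 also turned under quantile normalization (-0.011), centring (-0.037), array weights (-0.031) and without KO tumours 6 and 4 (-0.16). Leaving out 1 tumour, H2-Eb2 ran from -0.12 to 0.17 and Sptb from -0.42 to 0.013. Background signal was not given for these arrays, so limits for dim genes were not set.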

Other observations

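Of 19 neutrophil genes 1 was higher at an unadjusted p below 0.05 in limma, close to the share of 5.0% among all genes, with a median of 0.18. It was Cxcr2, a chemokine receptor, at 1.48 (SE 0.39, limma adjusted p = 0.224), while Csf3r, the receptor for G-CSF, differed by 0.25. The median of that list was -0.03 without WT tumour 4, -0.02 without WT tumour 5, 0.01 without KO tumour 4, 0.06 without WT tumour 1, 0.30 without KO tumour 9, 0.32 without WT tumour 9 and 0.34 without KO tumour 3, and 2 genes were higher without WT tumour 8, KO tumour 5 or WT tumour 1. Of 19 endothelial and stromal genes, with a median of 0.17 (0.25 without WT tumour 5 and 0.27 without WT tumour 1), 4 were higher at an unadjusted p below 0.05 in limma, or 2 without KO tumour 6, WT tumour 4, WT tumour 5, KO tumour 8 or KO tumour 9. They include Ccl19, a chemokine of the T cell zone, at 1.50 (SE 0.33) and Cxcl12, of stromal niches, at 0.92 (SE 0.24), and both rose in the slope over 18 tumours (limma adjusted p = 0.014 and 0.029). None of 14 erythroid and 8 megakaryocyte genes reached an unadjusted p below 0.05 in limma, with medians of -0.06 and -0.04, and the named members were Sptb at -0.28, Tfrc at -0.24, Vwf at -0.10 and Treml1 at 0.10. Neither median keeps a sign when 1 tumour is left out: the erythroid median ran from -0.14 without KO tumour 8 to 0.23 without WT tumour 1, with 0.06 without KO tumour 6, and the megakaryocyte median between -0.12 (WT tumour 9 left out) and 0.07 (KO tumour 9 left out).

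Of 19 cytosolic ribosomal protein genes 0 reached an unadjusted p below 0.05 in limma, with a median of 0.08, and Rpl13 differed by 0.33 and Rpl6 by 0.24. Of 13 ARF and p53 targets 0 did, with a median of 0.05, and Ccng1 differed by 0.40 and Trp53inp1 by 0.57. Leaving out 1 tumour, the ribosomal median was lowest at 0.04 (WT tumour 1 left out) and highest at 0.16 (KO tumour 9 left out). The ARF and p53 median was lowest at -0.003 (WT tumour 5 left out) and highest at 0.08 (KO tumour 6 left out). The mitotic genes Tpx2 and Kif11 differed by -0.53 and -0.46, and the ribosome biogenesis genes Ncl and Pa2g4 by -0.42 and -0.43, with limma adjusted p of 0.594 or more for these 4.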
